A study of Homo sapiens with 16 samples.

Results

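The genes described here form the core of transforming growth factor β (TGF-β) signalling and are 10 of the 25221 genes in the deposited counts. They are the ligand TGFB1, the receptors TGFBR1, TGFBR2 and TGFBR3, the signal transducers SMAD2, SMAD3, SMAD4 and SMAD7, and the repressors SKI and SKIL. They were chosen by name, and each symbol matched 1 row of the table. RNA was taken from MOLM13, a human acute myeloid leukemia line that carries the MLL-AF9 fusion, and from K562, a human BCR-ABL line derived from the blast crisis of a chronic myeloid leukemia. MOLM13 cells were at passages 8 to 12 and K562 cells at passages 12 to 18. The groups were MOLM13 with DMSO, MOLM13 with Ro, K562 with DMSO and K562 with Ro. Ro stands for Ro 08-2750, a small molecule studied as an inhibitor of RNA binding by Musashi proteins, given at 20 μM for 4 h with 0.1% DMSO in the medium. Each group had 4 libraries, numbered as pairs 1 to 4 of DMSO and Ro within each line, which gave 16 libraries. The comparisons asked whether Ro changed the RNA levels of these genes in either line and how the levels differed between the lines.

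In this pathway a TGF-β ligand binds TGFBR2, which recruits and phosphorylates TGFBR1, while TGFBR3 (betaglycan) presents the ligand as a coreceptor. The activated TGFBR1 phosphorylates SMAD2 and SMAD3, which enter the nucleus with SMAD4 and change transcription, and SMAD7, SKI and SKIL hold this signal back. TGF-β signalling is known in blood cells for restraining the growth of stem and progenitor cells, and TGFBR1 and SMAD3 are the members that the study names as mRNA targets of the Musashi protein MSI2. For both genes it reports that Ro lowered MSI2 binding to the mRNA in K562 cells and the protein in both lines. It found modest changes of target mRNA by qPCR, and proposes that Ro acts on direct targets mainly after transcription. The RNA levels below measure neither binding nor protein.

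Musashi proteins bind short stretches of RNA, and the study cites GUAG, or GTAG in DNA letters, as the minimal site of mouse MSI1. For human Musashi proteins it cites a preference for sequences that contain UAG. The 3′ untranslated regions (3′ UTRs) of all 10 members were searched for GTAG on the transcript strand, with GENCODE 29 transcripts on GRCh38. The sequences below are from TGFBR1 and SMAD3, because the study names them as targets, and from SKIL, because it was the member called for Ro in MOLM13. Each line gives the 30 bases of that 3′ UTR with the most GTAG (the first such stretch), 5′ to 3′ on the plus strand, with GTAG in capitals. The stretches were picked for their matches, so they do not show the usual density of the 3′ UTR.
TGFBR1, chr9:99153697-99153726: atgccatatGTAGttgctGTAGatggcaac
SMAD3, chr15:67193478-67193507: ccagcacatacGTAGGTAGctaccccagcc
SKIL, chr3:170393856-170393885: agaagGTAGataatctaatggtGTAGaaag
The 3′ UTR of TGFBR1 held 16 GTAG in 4887 bases, or 3.27 per kb, and 25.6% of 18211 genes with a 3′ UTR had as high a density or higher. SMAD3 held 17 in 4659 bases (3.65 per kb, 19.5% of genes at or above) and SKIL held 14 in 4418 bases (3.17 per kb, 27.4%). The median over all genes was 2.12 per kb. SMAD4, TGFB1 and SMAD2 also lay above that median, with 3.34, 2.74 and 2.53 per kb (24.5%, 36.1% and 40.7% of genes at or above). SMAD4, which was not called for Ro, was thus denser in GTAG than TGFBR1 and SKIL. TGFBR3, SMAD7, SKI and TGFBR2 lay under the median with 1.47, 1.32, 1.79 and 1.97 per kb. A match to these letters is a description of the sequence and was not tested as a binding site.

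Libraries held 3143129 to 43571060 counts, fewest in K562 DMSO libraries 2 and 4. CPM stands for a gene's counts divided by its library's TMM-adjusted total and brought to a common scale, so that libraries of unequal depth can be compared. Since reads come from the 3′ ends of transcripts, counts do not depend on transcript length. A gene with 3 counts stood at 0.067 CPM in the largest library and 0.872 CPM in the smallest, a limit that covers counting error only. The summed level of 11 MOLM13 markers was 928 to 1470 CPM in MOLM13 and 149 to 298 in K562, and that of 12 K562 markers was 1974 to 3562 CPM in K562 and 110 to 226 in MOLM13. CD14 stayed at or under 0.35 CPM in all libraries, and HBE1 was listed at 0 throughout. Among the MOLM13 markers, CD33 (8.67 to 24.8 CPM in MOLM13, 8.8 to 17.9 in K562) and LYZ (14.1 to 33.5 and 7.82 to 31.9) overlapped between the lines. So did the K562 marker EPOR, at 1.01 to 5.41 CPM in MOLM13 and 1.45 to 8.82 in K562. The labels do not say whether the libraries of a group came from separate cultures, so p-values measure the spread between these libraries, which may be technical.

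In DMSO-treated MOLM13 cells the most abundant member was TGFBR1, the type I receptor, at 71.6 ± 16.2 CPM (SD, n = 4). SKI followed at 66.4 ± 14.1 CPM, SMAD2 at 66.0 ± 3.15 and TGFB1 at 54.6 ± 12.2, and each of these neighbours overlapped the next in its range over libraries. SKIL at 37.3 ± 11.7 CPM and SMAD4 at 35.0 ± 2.65 overlapped too. TGFBR2 at 22.3 ± 6.53 CPM lay under SMAD4 in all libraries and above TGFBR3 at 9.83 ± 1.26. TGFBR3 and SMAD3 (9.35 ± 1.35 CPM) could not be ordered, and SMAD7 was the lowest at 2.64 ± 0.955.

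In DMSO-treated K562 cells TGFBR3 was the most abundant member at 70.6 ± 10.9 CPM (SD, n = 4), followed by TGFB1 at 64.8 ± 19.2 and SKI at 54.9 ± 15.5, with overlapping ranges. TGFBR1 at 38.4 ± 4.79 CPM, SMAD2 at 37.4 ± 4.26, SMAD3 at 28.5 ± 7.22, SKIL at 26.7 ± 5.97 and SMAD4 at 23.5 ± 4.69 formed a run in which each gene overlapped the next. TGFBR2 at 7.61 ± 2.03 CPM lay apart below them. SMAD7 was again the lowest, at 0.418 ± 0.345 CPM.

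**Figure D1:**
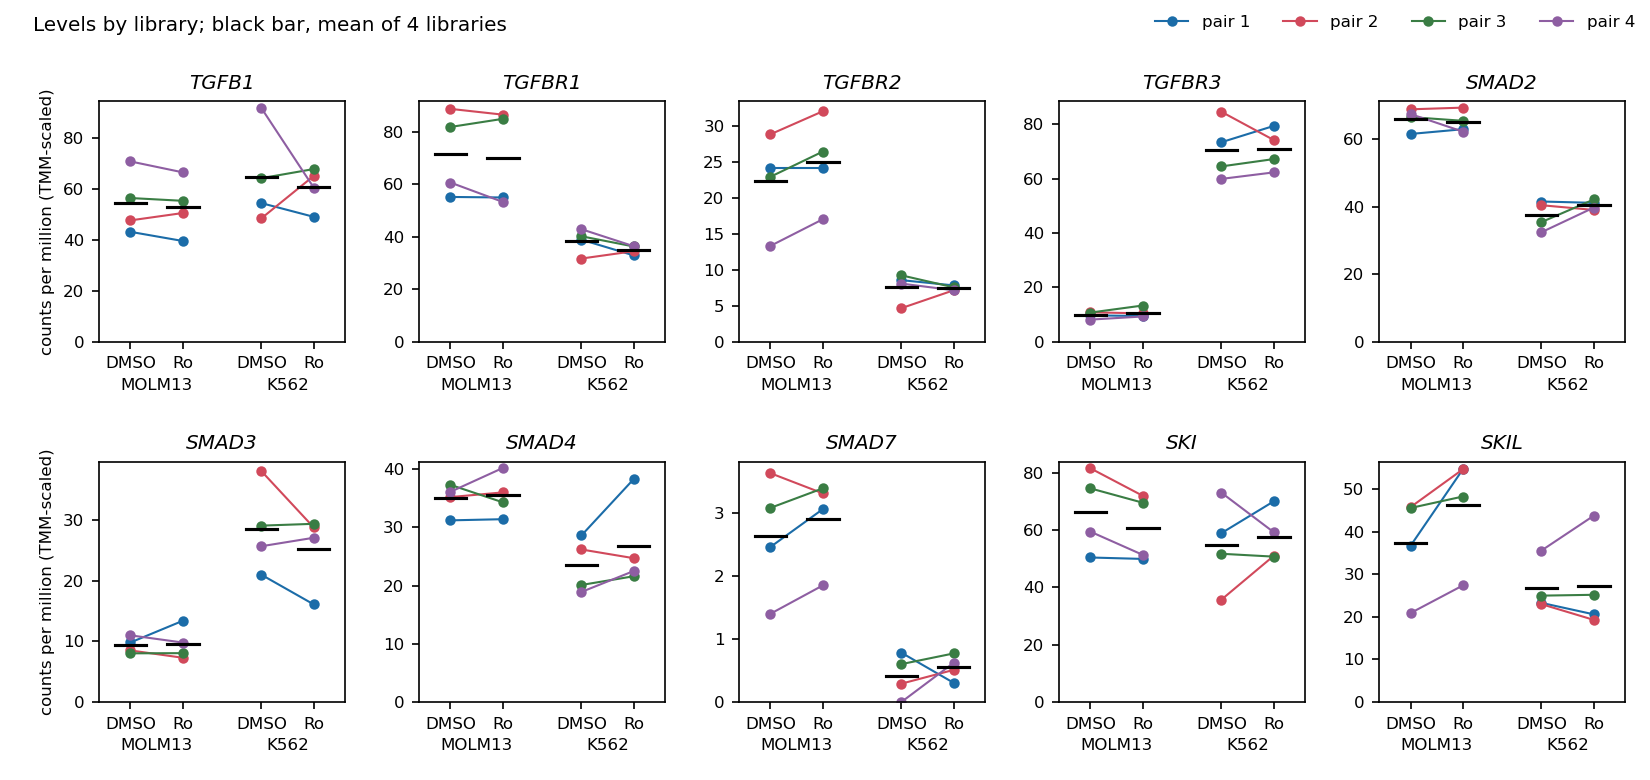
CPM of each member in every library, with DMSO and Ro libraries of the same pair joined by a line, in MOLM13 (left of each panel) and K562 (right); the black bar is the mean of 4 libraries, and each panel has its own axis from 0. DMSO and Ro libraries overlap in every panel, while TGFBR3 and SMAD3 stand higher in K562 and TGFBR2 and SMAD7 stand higher in MOLM13.

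The lines differed in 7 of the 10 members without Ro, against 41.3% of the 15268 genes tested (edgeR's quasi-likelihood test, K562 DMSO against MOLM13 DMSO, adjusted p under 0.05). TGFBR3 and SMAD3 were higher in K562, and TGFBR1, TGFBR2, SMAD2, SMAD4 and SMAD7 were lower. Over all genes 20.3% were called higher in K562 and 21.1% lower. The same 7 members had DMSO groups that did not overlap, as had 39.4% of all genes. In these bulk samples fewer cells with a transcript and less RNA per cell cannot be told apart.

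The ligand TGFB1 (chr19:41330323-41353922 in RefSeq on GRCh38.p14, which gives the positions below too) measured 43.2, 47.7, 56.5 and 70.9 CPM in MOLM13 DMSO libraries 1 to 4 and 54.5, 48.5, 64.3 and 91.9 CPM in those of K562. The groups overlapped, and library 4 was the highest in both lines. The log2 difference of K562 minus MOLM13 was 0.24 (SE 0.246, 95% confidence interval -0.29 to 0.77, edgeR adjusted p = 0.473).

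Of the receptors, TGFBR3 (chr1:91680343-91906002) differed the most. It measured 9.68, 10.8, 10.7 and 8.11 CPM in MOLM13 and 73.4, 84.6, 64.5 and 59.9 CPM in K562. The lowest K562 library was thus several times the highest MOLM13 library. The level in K562 was 7.15-fold that in MOLM13 (log2 2.84, SE 0.21, edgeR adjusted p = 1.57e-07).

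TGFBR1 and TGFBR2, the kinases that form the signalling receptor, differed in the opposite direction. TGFBR2 (chr3:30606356-30694142) measured 24.1, 28.8, 22.9 and 13.3 CPM in MOLM13 and 8.54, 4.65, 9.21 and 8.06 in K562. All K562 libraries lay under all MOLM13 libraries, and the K562 level was 0.352 of that in MOLM13 (log2 -1.51, SE 0.283, edgeR adjusted p = 0.000727). TGFBR1 (chr9:99103647-99154192) measured 55.2, 88.8, 81.9 and 60.7 CPM in MOLM13 and 38.9, 31.7, 40.2 and 42.9 in K562. These groups did not overlap either, with a log2 difference of -0.90 (SE 0.215, edgeR adjusted p = 0.00403).

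SMAD2 and SMAD3, the SMADs that the receptor phosphorylates, differed between the lines in opposite directions, with SMAD2 above SMAD3 in each DMSO library of both lines. SMAD3 (chr15:67065602-67195169) measured 9.82, 8.51, 8.03 and 11.0 CPM in MOLM13 and 21.0, 38.1, 29.1 and 25.7 in K562. It was 3.01-fold higher in K562 with no overlap (log2 1.59, SE 0.239, edgeR adjusted p = 0.000114). SMAD2 (chr18:47808957-47930872) measured 61.5, 68.8, 66.5 and 67.4 CPM in MOLM13 and 41.5, 40.4, 35.4 and 32.4 in K562, without overlap. It was lower in K562 by a log2 difference of -0.83 (SE 0.183, edgeR adjusted p = 0.00244).

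SMAD4 (chr18:51030213-51085042), the common partner of SMAD2 and SMAD3, ranged from 31.2 to 37.3 CPM in MOLM13 and from 18.9 to 28.6 in K562, with a log2 difference of -0.58 (SE 0.202, edgeR adjusted p = 0.0331). This call was lost when MOLM13 DMSO library 2 or 3 or K562 DMSO library 3 was left out, with adjusted p of 0.0686, 0.0881 and 0.106. SMAD7 (chr18:48919853-48950965), the inhibitory SMAD, measured 2.46, 3.63, 3.08 and 1.40 CPM in MOLM13 and 0.782, 0.291, 0.601 and 0 in K562. The K562 values rest on 35, 1, 15 and 0 counts, so that libraries 2 and 4 were below the 3-count limit. The log2 difference was -2.20 (SE 0.466, edgeR adjusted p = 0.00182).

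SKI (chr1:2228319-2310213) and SKIL (chr3:170357715-170396849), nuclear repressors of SMAD-driven transcription, did not pass the test between the lines. SKI ranged from 50.4 to 81.5 CPM in MOLM13 and from 35.7 to 73.0 in K562 (log2 -0.28, SE 0.245, edgeR adjusted p = 0.394). SKIL measured 36.7, 45.8, 45.6 and 20.9 CPM in MOLM13 and 23.3, 23.0, 25.0 and 35.6 in K562. Library 4 was the lowest in MOLM13 and the highest in K562, and the groups overlapped through these libraries. The log2 difference was -0.49 (SE 0.264, edgeR adjusted p = 0.162), and without MOLM13 DMSO library 4 it was -0.70 and passed the test (edgeR adjusted p = 0.0168).

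**Figure D2:**
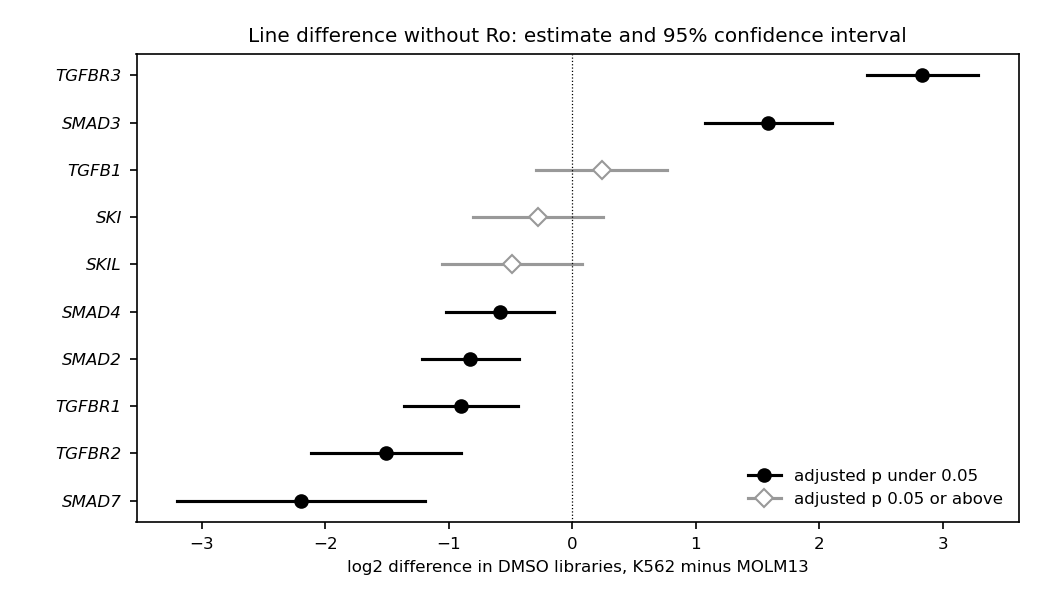
The log2 difference of each member in DMSO libraries, K562 minus MOLM13, from edgeR, with 95% confidence intervals over 4 libraries per line; filled circles passed the adjusted p of 0.05 and open diamonds did not. Values run from -2.20 for SMAD7 to 2.84 for TGFBR3, and the intervals of TGFB1, SKI and SKIL include 0.

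The Ro libraries, which were not used in that comparison, gave the same directions for these 7 members. They share pair numbers and correlated deviations with the DMSO libraries, so they are not an independent repeat. TGFBR3 was higher in K562 by 2.73 on the log2 scale and SMAD3 by 1.40, TGFBR1, TGFBR2, SMAD2 and SMAD7 differed by -1.0, -1.75, -0.69 and -2.32, and all 6 passed edgeR's test. SMAD4 did not (log2 -0.41, edgeR adjusted p = 0.086). SKIL passed in these libraries, with a log2 difference of -0.76 (edgeR adjusted p = 0.0347). Scaling by total counts, in place of TMM, moved the median of all genes from 0.005 to 0.408 and left 4 of the 10 members called (TGFBR3, SMAD3, TGFBR2 and SMAD7). It raised the share of calls that were higher in K562 from 49.1% to 71.2%, and SKI then stood at 0.14, which is still under that median. A single transcript with no symbol held 4.11% to 24.3% of the counts in MOLM13 libraries and 0.269% to 6.44% in those of K562, and its part in this shift was not tested.

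After 4 h with Ro, SKIL was the member with the largest fitted change in MOLM13 cells, and its call depended on the pairing. None of the 10 was called without the pairs in the model, where 0% of the 15031 genes tested were called (edgeR, 175 genes and no member at an unadjusted p under 0.05; DESeq2 called 1 gene). With the pair as a replicate block, edgeR called SKIL higher and no member lower, against 0.938% of genes called higher and 1.17% called lower. The fitted log2 changes of the members ran from -0.12 to 0.33 in that fit with a median of 0.019, and the median over all genes was 0.002. The median size of the change, with the sign dropped, was 0.077 for the members and 0.121 for all genes.

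SKIL measured 36.7, 45.8, 45.6 and 20.9 CPM in MOLM13 DMSO libraries 1 to 4 and 54.7, 54.7, 48.3 and 27.4 CPM in the Ro libraries of the same pairs. The groups overlapped because both libraries of pair 4 were low, yet the Ro library was the higher of each pair, by 0.58, 0.26, 0.083 and 0.39 on the log2 scale. Without the block the log2 change was 0.33 (SE 0.293, edgeR adjusted p = 1), and it was 0.13 without DMSO library 4 and 0.52 without Ro library 4. With the block it was also 0.33, or 1.26-fold, with a smaller error (SE 0.0828, 95% confidence interval 0.16 to 0.50, edgeR adjusted p = 0.0405). SKIL was then gene 247 of 15031 by p. DESeq2 with the block gave 0.32 and did not call it (adjusted p = 0.0644), and edgeR lost the call when any pair was left out (adjusted p of 0.231, 0.0942, 0.0939 and 0.0745 without pairs 1, 2, 3 and 4).

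The ligand and receptors did not pass the test for Ro in MOLM13. TGFBR1 measured 55.0, 86.6, 85.0 and 53.3 CPM with Ro, beside 55.2, 88.8, 81.9 and 60.7 with DMSO. Pairs 2 and 3 were high and pairs 1 and 4 low with either treatment, and the blocked log2 change was -0.029 (SE 0.0729, 95% confidence interval -0.18 to 0.12, edgeR adjusted p = 0.888). TGFBR2 was higher with Ro in 3 of 4 pairs, with a blocked log2 change of 0.20 (SE 0.0883) and an unadjusted edgeR p of 0.0316 that did not pass adjustment (adjusted p = 0.237). TGFB1 and TGFBR3 had blocked log2 changes of -0.020 (SE 0.0734) and 0.14 (SE 0.114).

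Among the SMADs no change passed the test in MOLM13. SMAD3 measured 13.4, 7.30, 8.06 and 9.81 CPM with Ro, beside 9.82, 8.51, 8.03 and 11.0 with DMSO. Pair 1 moved up, pairs 2 and 4 moved down, and the blocked log2 change was 0.001 (SE 0.125, 95% confidence interval -0.26 to 0.26, edgeR adjusted p = 0.997). SMAD2 and SMAD4 had blocked log2 changes of -0.011 (SE 0.071) and 0.037 (SE 0.0791). SMAD7, with 17 to 82 counts per library, stood at 0.16 (SE 0.184).

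SKI, the paralog of SKIL, was lower with Ro in 4 of 4 pairs, by -0.013, -0.18, -0.099 and -0.21 on the log2 scale. The blocked log2 change was -0.12 (SE 0.0722, 95% confidence interval -0.27 to 0.034, edgeR adjusted p = 0.426). SKIL was the member that was higher in all 4 pairs and SKI the member that was lower in all 4, which is 1 of 10 each. Over all genes 10.2% were higher in all 4 pairs and 14.9% were lower in all 4, so that these counts were near the background.

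In K562 cells no member passed the test for Ro in any fit. Both fits of edgeR called 0% of the 15227 genes, higher and lower alike, with 187 genes at an unadjusted p under 0.05 without the block and 322 with it, none of them a member. DESeq2 called 0 genes without the block and 2 with it. The blocked log2 changes of the members ran from -0.17 for SMAD3 to 0.18 for SMAD4, with a median of 0.000 against 0.020 for all genes. No member was higher or lower in all 4 pairs, while 6.84% and 4.64% of all genes were. In pairs 1 and 3 alone, which leaves out the shallow DMSO libraries 2 and 4, the blocked edgeR fit called 418 genes and no member. There 2 of the 9 members tested had an unadjusted p under 0.05, as had 2071 of 13667 genes. They were TGFBR1 (log2 -0.21, edgeR adjusted p = 0.316) and SMAD4 (log2 0.25, edgeR adjusted p = 0.235).

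TGFBR1 measured 38.9, 31.7, 40.2 and 42.9 CPM in K562 DMSO libraries and 32.9, 34.5, 36.3 and 36.4 with Ro. It was lower in 3 of 4 pairs, and the exception was pair 2, whose DMSO library had 109 counts of the gene. The blocked log2 change was -0.13 (SE 0.135, 95% confidence interval -0.44 to 0.18, edgeR adjusted p = 0.947). SMAD3 measured 21.0, 38.1, 29.1 and 25.7 CPM with DMSO and 16.1, 28.8, 29.4 and 27.1 with Ro, lower in pairs 1 and 2 and nearly level in pairs 3 and 4. Its blocked log2 change was -0.17 (SE 0.149, 95% confidence interval -0.51 to 0.17, edgeR adjusted p = 0.947).

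SKIL did not move in the same direction in all K562 pairs. It measured 20.6, 19.3, 25.2 and 43.8 CPM with Ro, beside 23.3, 23.0, 25.0 and 35.6 with DMSO, and pair 4 was the highest with either treatment. The log2 change was 0.043 without the block and -0.017 with it (SE 0.149, 95% confidence interval -0.36 to 0.32, edgeR adjusted p = 0.994). SKI, TGFB1, TGFBR2 and SMAD2 had blocked log2 changes of 0.11, -0.063, -0.040 and 0.13. TGFBR3, the most abundant member in K562, stood at 0.018 (SE 0.129). SMAD7 had 1 to 35 counts in 3 DMSO libraries and 0 in the fourth, and its interval ran from -1.16 to 1.47.

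**Figure D3:**
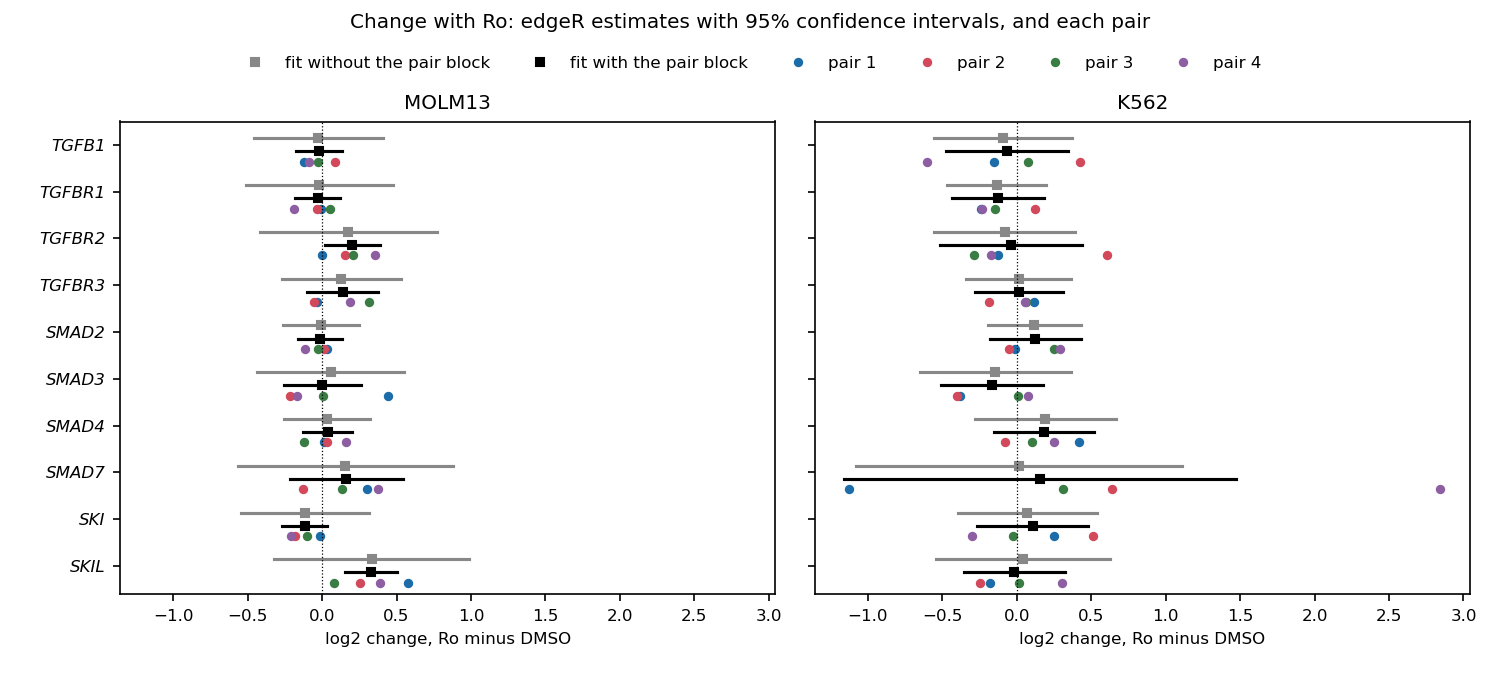
The log2 change of each member with Ro in MOLM13 and K562: squares and lines are edgeR estimates with 95% confidence intervals over 4 libraries per group, grey without and black with the pair block, and the coloured points are the 4 pairs. In MOLM13 the blocked interval of SKIL runs from 0.16 to 0.50 and all 4 of its pairs lie above 0; in K562 all intervals include 0.

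The change with Ro was not shown to differ between the lines for any member. The test of the line by treatment interaction called 0% of 16224 genes in edgeR without the block and 0% with it, where 218 and 975 genes had an unadjusted p under 0.05, and DESeq2 called 0. For SKIL the blocked difference, K562 minus MOLM13, was -0.34 (SE 0.17, 95% confidence interval -0.71 to 0.027, edgeR adjusted p = 0.766). The next largest differences were -0.25 for TGFBR2 and 0.22 for SKI, with SE of 0.20 and 0.175.

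The pairs of MOLM13 differed in most of the members, as they did in most genes, so that the count of members was near the background. In a fit with treatment and pair, edgeR called a pair difference for 7 of the 10 members, against 58.7% of all genes, a comparison chosen after the counts were seen. The 3 not called were TGFBR3, SMAD2 and SMAD4 (adjusted p of 0.0502, 0.678 and 0.373). SKIL had mean log2 CPM of 5.49, 5.65, 5.56 and 4.59 in pairs 1 to 4, TGFBR2 had 4.60, 4.93, 4.63 and 3.92, and SMAD7 had 1.51, 1.84, 1.74 and 0.78. Pair 4 was thus the lowest for these 3 genes, with a span of 1.01 to 1.06. TGFB1 had 5.37, 5.62, 5.81 and 6.10, highest in pair 4.

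TGFBR1 and SKI shared another order of pairs in MOLM13, with pairs 2 and 3 high and pairs 1 and 4 low. TGFBR1 stood at 5.79, 6.46, 6.38 and 5.83 log2 CPM in pairs 1 to 4, and SKI at 5.65, 6.26, 6.17 and 5.79. Without pair 4, edgeR called 4 members (TGFB1, TGFBR1, SMAD3 and SKI) and 3297 genes in place of 8828. In K562 the pair term called no member and 0.131% of genes (20, and 1759 at an unadjusted p under 0.05). SMAD3, SMAD4 and SKIL were the K562 members with an unadjusted edgeR p under 0.05 for the pair (0.0197, 0.0325 and 0.00518). The labels number the pairs without saying what a number stands for, and its part in these differences was not tested.

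**Figure D4:**
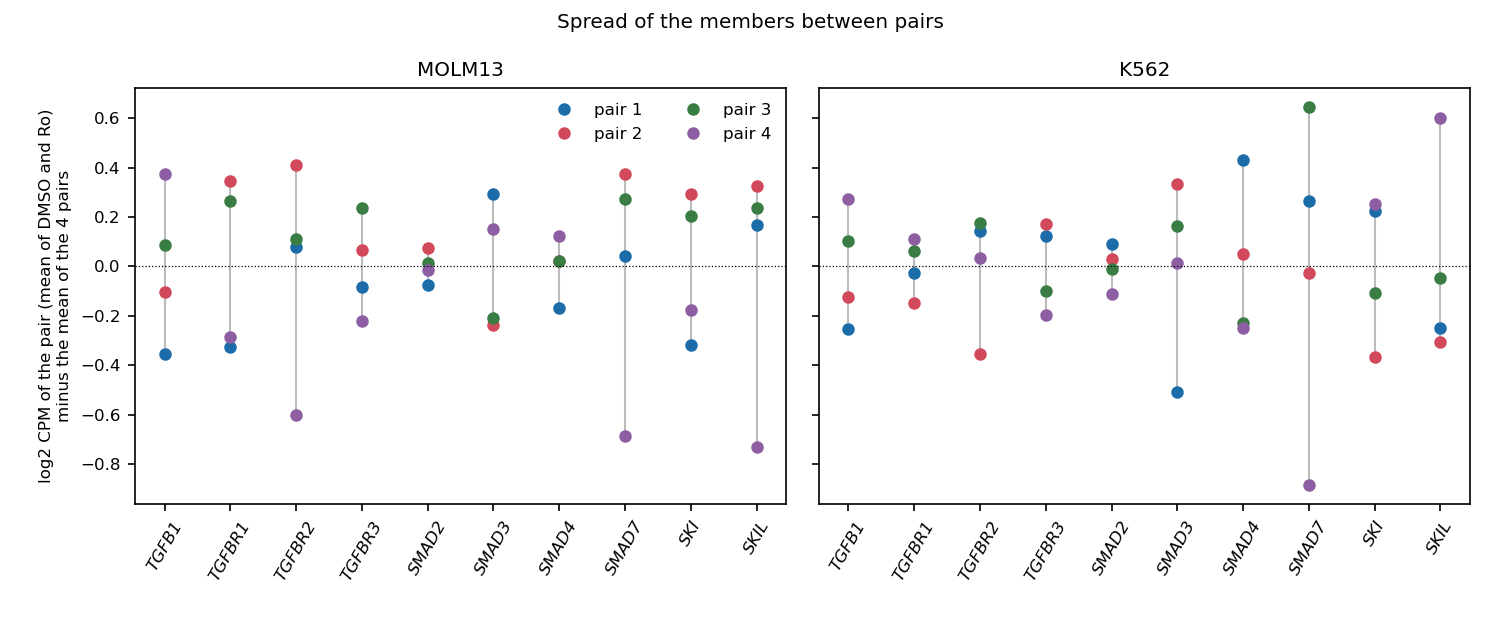
Level of each member in pairs 1 to 4 of MOLM13 and K562, as the mean log2 CPM of the DMSO and Ro library of the pair minus the mean of the 4 pairs; the grey line spans the lowest and highest pair. In MOLM13 pair 4 is the lowest for TGFBR2, SMAD7 and SKIL and the highest for TGFB1; in K562 pair 4 is the highest for SKIL and the lowest for SMAD7.

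The genes whose levels followed TGFBR1 and SMAD3 most closely were sought over the 16 libraries, among 7469 genes tested in both lines with a mean of at least 10 CPM in each. Likeness was the root mean square difference of log2 CPM after centring each line on its mean. For TGFBR1 the closest were PTPN14, NACC2 and ANO10, with differences of 0.132, 0.144 and 0.145 against a median of 0.385. For SMAD3 they were PTK2B, MICALL1 and SFMBT1, with 0.168, 0.174 and 0.177 against a median of 0.437. These genes were picked as the lowest of those compared, so that values under the median follow from the choice. A gene that stayed level within each line would score 0.241 for TGFBR1 and 0.308 for SMAD3, which is also under the medians.

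The wider TGF-β superfamily was followed with a list of 114 ligands, extracellular regulators, receptors, other SMADs, cofactors, ubiquitin ligases and early target genes, of which 112 were in the table and 86 were tested. Several of the others, such as FKBP1A, SNW1 and STUB1, were listed at 0 in every library. As the counting program and annotation are not given, a 0 throughout was not taken as lack of expression. In MOLM13 edgeR called 0 of the 86 for Ro without the block, none of them at an unadjusted p under 0.05. With the block it called 5 higher and 1 lower, against 0.938% and 1.17% of all genes, and 21 of the 86 had an unadjusted p under 0.05, as had 2585 of the 15031 genes tested in that fit. The median log2 change over the 86 was 0.069, beside 0.002 for all genes. In K562 edgeR called 0 of the 86 in either fit, with 2 and 5 at an unadjusted p under 0.05.

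By role, the MOLM13 calls were 2 of 12 ligands tested, 1 of 11 receptors and coreceptors, 2 of 20 SMAD partners and cofactors and 1 of 15 early SMAD target genes. The other groups gave none, namely 13 latency and extracellular regulators, 4 other SMADs and 11 ubiquitin ligases and deubiquitinases.

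CDKN1A, listed as an early SMAD target, encodes the cell cycle inhibitor p21 and is also a target of p53. The study counts its mRNA among those bound by MSI2, and reports less of that binding with Ro in K562 cells. It also reports more p21 protein in both lines after 4 h with Ro. CDKN1A RNA measured 41.3, 99.8, 108 and 103 CPM in MOLM13 DMSO libraries and 53.3, 153, 162 and 206 with Ro, higher in each pair. The blocked log2 change was 0.68 (SE 0.0841, edgeR adjusted p = 8.32e-05), and it stayed past the threshold with any pair left out. In K562 CDKN1A stood at 3.84 ± 1.38 CPM with DMSO and 4.00 ± 1.90 with Ro (SD, n = 4), a blocked log2 change of 0.013.

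EP300 and CREBBP, related acetyltransferases that SMADs recruit as coactivators, were higher with Ro in each MOLM13 pair. EP300 measured 83.6, 80.4, 74.0 and 61.1 CPM with DMSO and 118, 100.2, 84.7 and 68.7 with Ro, and CREBBP 88.5, 81.8, 81.9 and 70.4 with DMSO and 115, 104, 92.1 and 79.6 with Ro. The blocked log2 changes were 0.31 (edgeR adjusted p = 0.0324) and 0.28 (edgeR adjusted p = 0.042). BMPR1A, a type I receptor for bone morphogenetic proteins, rose by 0.34 with the block (edgeR adjusted p = 0.0327), from 36.4, 28.4, 23.0 and 15.9 CPM to 48.1, 33.4, 30.1 and 19.2. DESeq2 with the block did not call BMPR1A (adjusted p = 0.0554). In K562 EP300 and CREBBP were also higher in each pair, most in pair 4, with blocked log2 changes of 0.42 (SE 0.237) and 0.32 (SE 0.163). Neither passed edgeR's test there (adjusted p = 0.947 for both). BMPR1A was higher in 3 of 4 K562 pairs, with a blocked log2 change of 0.195 (SE 0.178).

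GDF15, a stress-induced ligand of the superfamily, measured 1.01, 1.95, 3.57 and 19.1 CPM in MOLM13 with DMSO and 1.57, 5.54, 8.11 and 20.0 with Ro, a blocked log2 change of 0.71 (edgeR adjusted p = 0.0492). Pair 4 was far above the others with either treatment. INHBA, a subunit of activins, was the gene called lower (log2 -1.23, SE 0.249, edgeR adjusted p = 0.0102). It measured 0.433, 5.58, 3.12 and 1.89 CPM with DMSO and 0.611, 2.43, 1.47 and 0.40 with Ro, lower in 3 of 4 pairs, and DESeq2 with the block gave it no adjusted p. All of these 6 genes but CDKN1A lost the call without pair 2 and without pair 3.

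Between the lines without Ro, edgeR called 19 of the 86 wider genes higher in K562 and 20 lower, which is near the 20.3% and 21.1% of all genes. The smallest p among the higher were those of ID1, an early target of bone morphogenetic protein signals, at 8.19 ± 5.61 CPM in MOLM13 and 141 ± 42.2 in K562, of AMHR2, a type II receptor, at 0.112 ± 0.0243 and 11.0 ± 9.82, and of SMAD5, which carries bone morphogenetic protein signals, at 19.0 ± 0.577 and 66.6 ± 18.0 (SD, n = 4). Among the lower they were those of GADD45B, a stress-response gene, at 66.7 ± 21.1 CPM in MOLM13 and 2.31 ± 0.813 in K562, of RUNX3, a transcription factor, at 31.6 ± 6.84 and 1.29 ± 0.551, and of CDKN1A at 88.0 ± 31.3 and 3.84 ± 1.38. By role, 8 of 16 early SMAD target genes were lower in K562 and 3 were higher, while 5 of 13 latency and extracellular regulators were higher and 0 lower.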

How the data were processed

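RNA of 16 libraries (MOLM13 and K562, DMSO or Ro, pairs 1 to 4) was prepared with the QuantSeq 3′ mRNA-Seq FWD kit. The authors deposited whole read counts per gene for 25221 genes, without normalization. The submitters' processing notes name Trim Galore, STAR 2.5.3a, SAMtools 1.5 and the hg38 build, while the counting program, strand setting and annotation are not given in the sources used here, so reads on overlapping genes are uncertain. Of the genes, 1425 carry no symbol, and 0 columns lacked a sample.

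Groups came from the labels. The test was edgeR's two-sided quasi-likelihood F test (version 4.0.16, R 4.3.3) with TMM scaling. A gene was tested where 4 or more libraries of the fit held 10 or more counts of it. P-values were adjusted by Benjamini-Hochberg over all genes tested, with a threshold of 0.05. The lines were fitted apart for Ro. The fits were tested on simulated counts with planted changes larger than the Ro changes of the members, so their power for changes that small was not tested. Log2 CPM used a prior count of 2. Tables were made with Python 3.11.15 and pandas 2.3.3.

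The study's text names no pairing, so the main fit had no block. The pair numbers come from the titles. Deviations from the group means of same-numbered libraries correlated across genes at 0.384 to 0.831 in MOLM13 and 0.11 to 0.417 in K562, each over 0.1. Those of different-numbered libraries ran from -0.618 to 0.356 in MOLM13 and from -0.262 to 0.187 in K562. The numbers were taken to pair the samples, less surely in K562. There Ro library 2 correlated more with DMSO library 3 (0.187) than with DMSO library 2 (0.11). Libraries of the same group differed by more than sampling noise (chi-square per degree of freedom at least 10.1).

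All 10 members are named. Of the wider list, genes past the threshold for Ro in either fit are named, with the 3 smallest p in each direction between the lines, and a symbol shared by several rows was settled by its RefSeq identifier. The members and lists were chosen with earlier results of these data known. The alternatives were DESeq2 1.42.0, the replicate block, other scaling and count minimums, a single fit of all libraries, K562 pairs 1 and 3 alone, and leaving out each library or pair. The pair term, K562 DMSO libraries 1 and 3 alone, pair 4 left out of the DMSO comparison and the Ro libraries in its place were added after the data were seen.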

Additional observations from a re-analysis of the deposited data

Results flagged for a closer look

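Of 40 groups of 4 libraries (10 members in 4 groups), 2 held a library far from the other 3, and chance alone flags about 1 group in 20. SMAD3 was lowest in K562 Ro library 1, at 16.1 CPM, where the other 3 libraries lay between 27.1 and 29.4. SKIL was highest in K562 DMSO library 4, at 35.6 CPM, where the others lay between 23.0 and 25.0.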

How the results depend on the processing

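The count of genes called for Ro in MOLM13 was 0 in edgeR, 317 with the replicate block, 1 in DESeq2 and 266 in DESeq2 with the replicate block, and ran from 0 to 358 when a library or pair was left out. Here and in the Ro ranges below, single libraries were left out without the block and pairs with it. With the block the MOLM13 count was 106, 187, 49 and 358 without pairs 1, 2, 3 and 4. In K562 the count was 0, and 2 in DESeq2 with the replicate block and 418 in K562 pairs 1 and 3 alone with the replicate block. The line difference in the Ro change gave 0 calls in every fit run, and the count for K562 DMSO against MOLM13 DMSO stayed within 1.5 times the main count in every fit run. The pair term called 3297 to 8730 genes in MOLM13 when a pair was left out, lowest without pair 4, and 0 in K562 in place of 20. The replicate block changed the call of 1 member, SKIL in MOLM13, and of the 6 wider genes named for Ro.

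Between the lines, 157 of 169 values of the members in other fits kept direction and call. Total-count scaling turned SKI to 0.138 and cost TGFBR1, SMAD2 and SMAD4 their calls, and the other lost calls were those of SMAD4. For the Ro changes, signs of values near 0 turned in 27 of 199 values in MOLM13, 30 of 201 in K562 and 14 of 200 of the line difference. The cause was not tested.

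In MOLM13, total-count scaling gave 0.038 for TGFB1, 0.037 for TGFBR1 and 0.041 for SMAD2, a minimum of 50 counts gave 0.008 for SMAD2, and DESeq2 with the replicate block gave -0.002 for SMAD3. In K562, total-count scaling gave -0.050 for TGFBR3, -0.018 for SKI and -0.011 for SKIL, and a minimum of 50 counts gave -0.009 for TGFBR3. SKIL in K562 was -0.017 with the replicate block, -0.023 in DESeq2 with the replicate block and -0.094 in pairs 1 and 3, where BMPR1A was -0.025 and CDKN1A -0.006.

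With a library or pair left out, the MOLM13 log2 changes ran from -0.147 to 0.118 for TGFB1, from -0.136 to 0.100 for TGFBR1, from -0.016 to 0.329 for TGFBR2, from -0.002 to 0.201 for TGFBR3, from -0.041 to 0.021 for SMAD2, from -0.152 to 0.169 for SMAD3, from -0.023 to 0.085 for SMAD4, from -0.098 to 0.369 for SMAD7, from 0.126 to 0.521 for SKIL and from -0.363 to 1.946 for GDF15. Those of K562 ran from -0.230 to 0.122 for TGFB1, from -0.221 to 0.066 for TGFBR2, from -0.066 to 0.101 for TGFBR3, from -0.307 to 0.008 for SMAD3, from -0.047 to 0.277 for SMAD4, from -0.187 to 0.125 for SMAD7, from -0.080 to 0.230 for SKI, from -0.298 to 0.211 for SKIL, from -0.104 to 0.579 for GDF15 and from -0.197 to 0.414 for CDKN1A. The line difference ran from -0.206 to 0.166 for TGFB1, from -0.224 to 0.016 for TGFBR1, from -0.172 to 0.024 for TGFBR3, from -0.320 to 0.002 for SMAD3, from -0.043 to 0.285 for SMAD4 and from -0.345 to 0.307 for SMAD7. Depth limits SMAD7 most, since K562 DMSO libraries 2 and 4 held 1 and 0 of its counts.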
